A study of Mus musculus with 7 samples.

Results

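Prostaglandins and leukotrienes are lipid mediators that cells make from arachidonic acid and sense through receptors on the cell surface. The transcripts of 10 genes of these pathways were followed in type 2 innate lymphoid cells (ILC2s) of the mouse heart. Their rows were taken by gene symbol from tables of 55335 genes, and each of the 10 symbols matched 1 row. They comprised 6 receptors (Ptgdr2, Ptgir, Ptger2, Ptger4, Cysltr1 and Ltb4r1) and 4 genes of synthesis (Ptgs2, Hpgds, Alox5 and Alox5ap). They were chosen by pathway.

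RNA was sequenced from 3 libraries of naive hearts and 4 libraries of BALB/c hearts transplanted into C57BL/6 (B6) recipients and taken at day 7, in a model of acute rejection. Each library was a biological replicate that pooled the ILC2s of 4 to 7 hearts, sorted as CD45+ Lineage- ST2+ cells, so that differences between single animals could not be seen. The comparison asked how graft-infiltrating ILC2s differ in their transcripts from those of the resting heart. The labels gave no strain or genotype for the naive hearts, and did not say whether the graft ILC2s came from donor or recipient; all 7 samples carried the time 7 days. Total counts were 29107326 to 53044907 per library. Levels are given as CPM, counts scaled to the library's total, and levels of different genes are compared as FPKM, which also divides by gene length. A count of 0 allowed 0.0566 to 0.103 CPM (3 counts), for counting error only.

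The cells' label was checked against 12 ILC2 markers, among them Il1rl1 (ST2), Gata3 and Rora. Their summed level was 12263 and 14537 CPM in naive replicates 1 and 3 and 11714 to 12544 CPM in the allografts, but 1149 CPM in naive replicate 2, where Il13 had 0 counts. In that library 10 kidney genes summed to 10200 CPM, against 67.7 to 274 CPM in the other 6. The library labelled naive replicate 2 therefore went against its cell type label, and the results on the 9 detected genes are also given without it. Naive replicates 1 and 3 differed in other lists. Lung genes summed to 0.283 CPM in naive replicate 1, 668 CPM in naive replicate 3 and 238 to 656 CPM in the allografts. Macrophage and monocyte genes summed to 2.49 CPM, 480 CPM and 173 to 274 CPM in the same order. The part of such RNA in the levels of the 9 genes was not tested. Of 15 lists of cell type markers, those of T cells, neutrophils, eosinophils and dendritic cells were higher in all 4 allografts than in all 3 naive libraries, and erythroid genes were lower. For each of these 5 an exact permutation test (two-sided) gave p = 0.0286, the smallest that 3 against 4 libraries allow, or 0.0857 after adjustment over the 15 lists. Within these lists the genes differed widely in the allografts. Among eosinophil genes Prg2 stood at 65.0 to 144 CPM and Siglecf at most at 3.45 CPM, among neutrophil genes Retnlg at 37.7 to 62.0 CPM and Ly6g at most at 2.86 CPM, and among T cell genes Trbc2 at 383 to 481 CPM and Cd3e at most at 1.24 CPM. In bulk RNA of sorted cells, fewer cells of a type and less RNA per cell cannot be told apart.

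Prostanoid synthesis starts when a cyclooxygenase such as COX-2, encoded by Ptgs2, turns arachidonic acid into prostaglandin H2, from which hematopoietic prostaglandin D synthase (Hpgds) makes prostaglandin D2. Prostaglandin E2 acts on EP2 (Ptger2) and EP4 (Ptger4), prostacyclin on IP (Ptgir), and all 3 receptors raise cAMP. Prostaglandin D2 attracts and activates ILC2s through CRTH2 (Ptgdr2), whereas prostaglandin E2 and prostacyclin are known to restrain them. Leukotriene synthesis starts with 5-lipoxygenase (Alox5) and its activating protein FLAP (Alox5ap), and cysteinyl leukotrienes and leukotriene B4 act on Cysltr1 and on Ltb4r1 (BLT1). Cysteinyl leukotrienes are known to activate ILC2s through Cysltr1.

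Promoter windows of 250 bases before the RefSeq gene start (GRCm38.p6) are shown for 3 genes on which the results turn. Ptger2, the prostaglandin E2 receptor nearest to the threshold, had its window at chr14:44987861-44988110 (+). Ptgs2, lower in the allografts once naive replicate 2 was left out, had it at chr1:150099781-150100030 (+). Ltb4r1, the gene with the highest level, had it at chr14:55765712-55765961 (+). Capitals mark letters searched on both strands, which were TGATAA or AGATAA for GATA factors, TGTGGT for RUNX and GGAAAA for NFAT.
Ptger2: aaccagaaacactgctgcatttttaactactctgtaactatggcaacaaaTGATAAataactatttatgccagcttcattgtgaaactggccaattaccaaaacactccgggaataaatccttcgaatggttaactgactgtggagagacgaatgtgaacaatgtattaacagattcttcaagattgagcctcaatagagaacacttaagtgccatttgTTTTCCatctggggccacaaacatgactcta
Ptgs2: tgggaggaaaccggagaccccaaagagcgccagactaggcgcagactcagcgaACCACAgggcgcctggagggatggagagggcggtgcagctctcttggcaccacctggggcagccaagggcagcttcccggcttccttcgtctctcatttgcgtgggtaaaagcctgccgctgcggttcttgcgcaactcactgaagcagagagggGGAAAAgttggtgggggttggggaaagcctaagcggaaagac
Ltb4r1: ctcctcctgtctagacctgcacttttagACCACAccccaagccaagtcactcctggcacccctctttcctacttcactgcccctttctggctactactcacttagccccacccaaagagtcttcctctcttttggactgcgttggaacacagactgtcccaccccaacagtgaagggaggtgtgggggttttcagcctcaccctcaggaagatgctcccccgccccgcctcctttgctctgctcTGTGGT
Ptger2 held 1 GATA match (TGATAA, 200 bases before the start) and 1 NFAT match, Ptgs2 held 1 RUNX and 1 NFAT match, and Ltb4r1 held 2 RUNX matches. Among the 8 of 10 genes with a window, GATA letters occurred in 1, RUNX in 3 and NFAT in 2. Over 32851 windows of all genes the shares were 16.6%, 14.0% and 20.4%. The core of the cAMP response element (TGACGT, in 6.47% of all windows), the E-box CACGTG (6.02%) and the AP-1 letters TGANTCA (6.75%) occurred in 0 of the 8. A match describes letters only, and its absence covers these windows alone, since bases outside them were not searched. The Ptger2 window was the poorest in G and C of the 3, with 38.0%, against 61.6% for Ptgs2 and 56.8% for Ltb4r1 and a median of 52.4% over all windows.

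Of the 10 genes, 9 were tested and 0 passed an adjusted p of 0.05 in edgeR's quasi-likelihood test, allograft against naive; over all 17015 genes tested 0.0353% passed. At an unadjusted p under 0.05 there was 1 of the 9, Ptger2, against 10.3% of all genes. The fitted log2 fold changes were positive for 5 genes and negative for 4, with a median of 0.44 against -0.01 over all genes. Without naive replicate 2 again 0 of 9 passed, against 3.1% of all genes, and 3 of 9 (Ptger2, Ptgs2 and Cysltr1) had an unadjusted p under 0.05, against 20.2%. The median was then -0.14 for the 9 genes and 0.23 over all genes. The allograft libraries lay close together and the naive libraries far apart, as the plot of each gene's level by library shows.

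**Figure D1:**
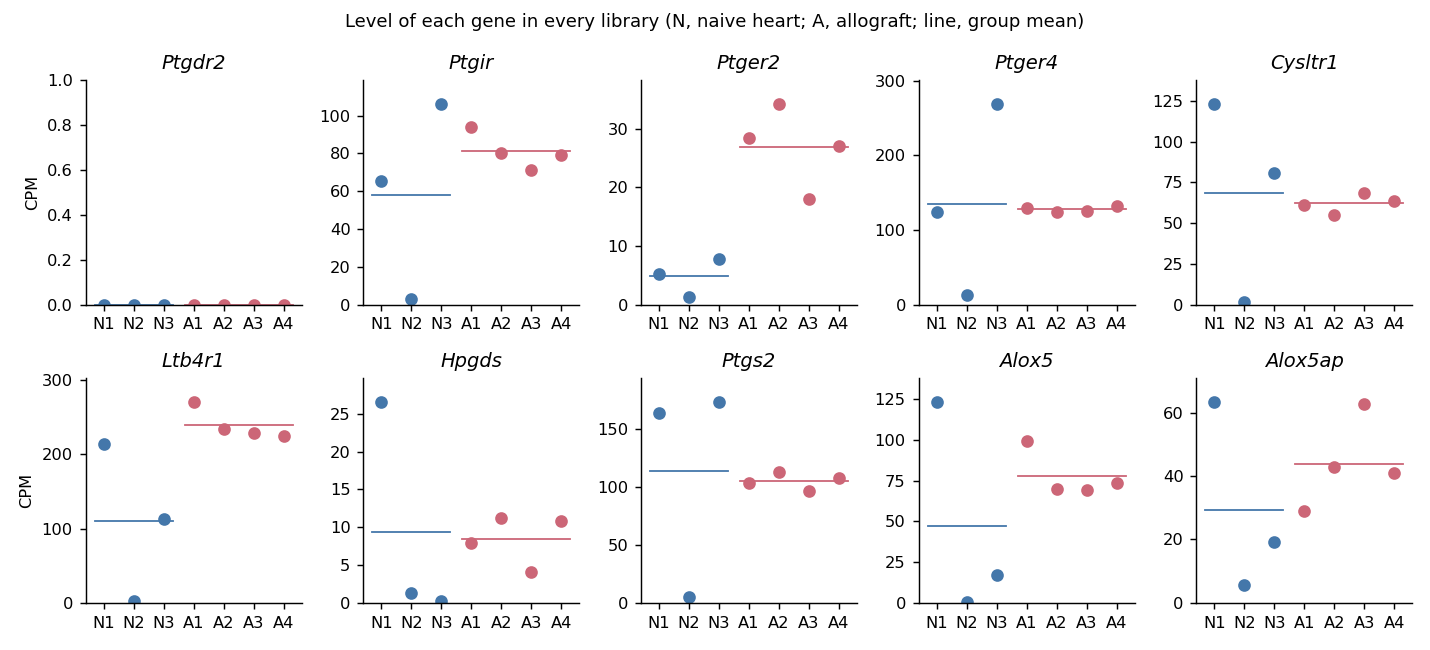
Level of each of the 10 genes in CPM (linear axes from 0, 1 panel per gene) in naive libraries N1 to N3 and allograft libraries A1 to A4, with the group mean as a line. The 4 allograft points of Ptger2 (18.0 to 34.2 CPM) lie above all naive points, N2 is low in every detected gene, and Ptgdr2 is at 0 throughout.

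Ptger2, the EP2 receptor (chr14:44988195-45003820, + strand, GRCm38), was higher in each of the 4 allograft libraries than in each naive library. Its level was 5.26, 1.25 and 7.85 CPM in naive replicates 1 to 3 and 28.4, 34.2, 18.0 and 27.0 CPM in allograft replicates 1 to 4. The groups did not overlap, and all 3 naive libraries were low; the lowest value, in naive replicate 2, rested on 57 counts (95% Wilson interval 0.967 to 1.62 CPM). The mean of the naive libraries was 4.79 ± 3.32 CPM (SD, n = 3), and that of the allografts was 26.9 ± 6.72 CPM (SD, n = 4). The fitted log2 fold change was 2.40 (SE 0.664, 95% interval 0.85 to 3.95), or 5.28-fold, with an unadjusted p of 0.00762 and an adjusted p of 0.243 in edgeR.

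The Ptger2 difference did not pass the threshold in edgeR but did in DESeq2 (log2 fold change 2.24, SE 0.570, adjusted p = 0.00263). DESeq2 called 6.98% of the genes to which it gave an adjusted p, 4.65% as higher in allografts. Ptger2 was the only 1 of the 9 called by it over all 7 libraries. Leaving out naive replicate 2 gave a log2 fold change of 1.98 in edgeR (SE 0.487, adjusted p = 0.0869) and 1.88 (adjusted p = 4.44e-04) in DESeq2, where 13.5% of genes were called higher. In the 15 alternatives the log2 fold change was 1.62 to 2.93, with adjusted p-values of 4.44e-04 to 1. The marker lists of eosinophils (1.43 to 26.8 CPM in naive, 92.2 to 208 CPM in allograft libraries), dendritic cells (12.7 to 31.8 and 82.6 to 109 CPM), neutrophils (0 to 13.0 and 76.0 to 124 CPM) and T cells (24.7 to 542 and 583 to 729 CPM) separated the groups in the same direction. Of the 8 eosinophil genes 1 to 2 had a count in the naive and 4 to 8 in the allograft libraries, of the 7 dendritic cell genes 1 to 5 and 7, of the 8 neutrophil genes 0 to 4 and 3 to 6, and of the 8 T cell genes 5 to 6 and 5 to 8. Their part in the Ptger2 difference was not tested. An antisense gene, Gm17173, shares 246 of the 5193 exonic bases of Ptger2. Gm17173 stood at 0 in all 3 naive libraries and at 1.68, 4.01, 2.03 and 0 CPM in allograft replicates 1 to 4. Another gene, Gm49364, shares 144 and stood at most at 1.70 CPM. The part of reads in shared bases was not tested.

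Ptger4, the EP4 receptor (chr15:5206661-5244187, - strand), was the steadiest of the 9 genes in the allografts. It stood at 124, 12.4 and 269 CPM in naive replicates 1 to 3; the allografts, by number, stood at 129, 124, 125 and 131 CPM. The allograft libraries all lay inside the naive range, next to naive replicate 1. Their coefficient of variation was 2.64%, against a median of 30.1% over all genes tested. The log2 fold change was -0.15 (SE 0.729, adjusted p = 0.981), with a 95% interval of -1.85 to 1.55. It was -0.69 without naive replicate 2 (SE 0.326, adjusted p = 0.298) but 0.85 without naive replicate 3, so that the sign depended on the naive library left out. Of the 6648 exonic bases 16.5% are shared with genes on the opposite strand, mainly the pseudogene Gm15937, which stood at most at 0.584 CPM.

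Both receptors bind the same ligand, and their relation to each other within a library does not depend on how deeply it was sequenced. Per length, the FPKM of Ptger2 was 5.38%, 12.8% and 3.72% of that of Ptger4 in naive replicates 1 to 3. In allograft replicates 1 to 4 it was 28.2%, 35.3%, 18.4% and 26.3%. The groups did not overlap, with means of 7.29% ± 4.81 (SD, n = 3) and 27.0% ± 6.94 (SD, n = 4), a ratio of 3.71. That ratio was 5.94 when naive replicate 2 was left out. The comparison was not planned and is given with no test, and the Ptger2 difference is part of it. Among all pairs of genes tested, 12.9% had ratios of CPM without overlap, or 31.6% without naive replicate 2. Ptger4 remained the more abundant of the pair in all 7 libraries.

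Ptgir, the prostacyclin receptor (chr7:16906490-16910905, + strand), stood at 65.5, 2.73 and 106 CPM in naive and at 93.8, 80.1, 71.4 and 79.2 CPM in allograft replicates in order of their numbers. The allograft libraries fell between naive replicates 1 and 3, and only naive replicate 2 stood apart. On the log2 scale the difference was 0.44 (SE 0.850, 95% interval -1.55 to 2.42, adjusted p = 0.937). With that library left out it was -0.14, and the 95% interval ran from -0.84 to 0.57.

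Ptgdr2, the prostaglandin D2 receptor CRTH2 that is widely used as an ILC2 marker (chr19:10937160-10942511, + strand), had 0 counts in all 7 libraries. A count of 0 among 288527642 counts in all allows a level of at most 0.0566 CPM in the deepest library and 0.103 CPM in the shallowest. Its exons share 1031 of 2644 bases with Ccdc86 on the opposite strand, which stood at 9.12 to 25.8 CPM, while 1613 bases are shared with no gene. How reads in shared bases were counted is not given in the sources used here. The other prostaglandin D2 receptor, Ptgdr, was listed at 0 FPKM in every library as well.

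Cysltr1, the receptor for cysteinyl leukotrienes (chrX:106574346-106603679, - strand), stood at 123, 1.30 and 80.6 CPM in naive replicates 1 to 3. In allograft replicates 1 to 4 it stood at 61.4, 55.3, 68.8 and 63.7 CPM. All allograft libraries lay below naive replicates 1 and 3 and far above naive replicate 2. The log2 fold change was -0.16 (SE 0.984, adjusted p = 0.987) with all 7 libraries. It was -0.75 without naive replicate 2 (SE 0.254, 95% interval -1.36 to -0.14), with an unadjusted p of 0.0233 and an adjusted p of 0.181 in edgeR.

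Cysltr1 can be set beside Cysltr2, a second receptor for the same ligands, a comparison chosen after the values had been seen and given with no test. Per length Cysltr2 was the more abundant, with 58.1, 0.750 and 33.6 FPKM in naive and 52.7 to 56.9 FPKM in allograft libraries. The FPKM of Cysltr1 was 36.0%, 30.2% and 41.1% of that of Cysltr2 in the naive libraries by number. In the allografts it was 18.0%, 16.4%, 22.0% and 19.3%. The groups did not overlap, while 12.9% of all pairs of genes tested had ratios of CPM without overlap, or 31.6% without naive replicate 2. For Cysltr1 and Cysltr2, naive replicate 2 lay beside the other naive libraries. Its value rested on 59 counts of Cysltr1, in the library that went against its cell type label.

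Ltb4r1, the high-affinity leukotriene B4 receptor BLT1 (chr14:55765962-55768494, + strand), had the highest level of the 10 genes. It stood at 214, 2.64 and 113 CPM in naive and 270, 233, 229 and 225 CPM in allograft replicates in order of their numbers. The allograft libraries lay above all naive libraries, although naive replicate 1 came close to allograft replicate 4. The log2 fold change was 1.10 (SE 0.983, 95% interval -1.19 to 3.40, adjusted p = 0.802 in edgeR), and 0.51 (SE 0.288, adjusted p = 0.353) without naive replicate 2.

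Ptger2 and Ltb4r1 were thus the 2 genes whose allograft libraries all exceeded all naive libraries, and 0 of the 9 had all allograft libraries below. Over all genes tested 12.5% lay higher and 2.15% lower with no overlap. With naive replicate 2 left out, Ptger2 and Ltb4r1 were again higher (background 21%), and Cysltr1 and Ptgs2 were lower (background 7.15%). The naive libraries set this count, which was 2 with any 1 allograft library left out.

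Of the genes of synthesis, Ptgs2 (COX-2, chr1:150100031-150108227, + strand) differed least between naive replicates 1 and 3. It stood at 164, 4.70 and 173 CPM in naive replicates 1 to 3 and at 103, 113, 96.2 and 108 CPM in allograft replicates 1 to 4. The allografts were below both of these naive libraries and above naive replicate 2, and the log2 fold change over all 7 libraries was -0.15 (SE 0.846, adjusted p = 0.984). It was -0.73 without naive replicate 2 (SE 0.191, 95% interval -1.19 to -0.27), 1.66-fold lower, with an unadjusted p of 0.00782 and an adjusted p of 0.101 in edgeR.

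DESeq2 without naive replicate 2, an alternative chosen after seeing the data, called 3 of the 9 genes: Ptger2 as higher, Ptgs2 (log2 fold change -0.82, adjusted p = 0.00107) and Cysltr1 (log2 fold change -0.83, adjusted p = 0.0257) as lower. It called 16.9% of all genes, 3.35% as lower. Among the 15 alternatives, adjusted p-values were 0.00107 to 1 for Ptgs2 and 0.0257 to 1 for Cysltr1, and each passed in that 1 alone. The calls on these genes therefore rested on naive replicates 1 and 3 and on the choice of tool.

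**Figure D2:**
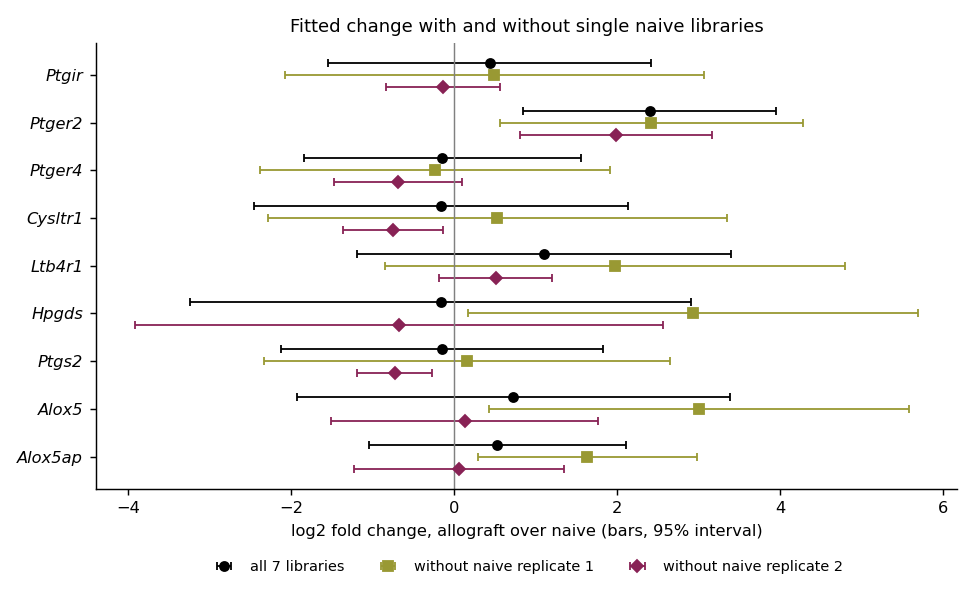
Fitted log2 fold change, allograft over naive, of the 9 tested genes (edgeR quasi-likelihood) with 95% intervals, over all 7 libraries, without naive replicate 1 and without naive replicate 2. Ptger2 lies above 0 in each of the 3 fits, Ptgs2 and Cysltr1 lie below 0 without naive replicate 2, and Hpgds, Alox5 and Alox5ap move upward without naive replicate 1.

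Hpgds, the prostaglandin D2 synthase (chr6:65117293-65144908, - strand), varied more between naive replicates than between groups. It stood at 26.5, 1.32 and 0.275 CPM in naive replicates 1 to 3 and at 7.93, 11.3, 4.04 and 10.8 CPM in allograft replicates 1 to 4. The value of naive replicate 3 rested on 12 counts (95% Wilson interval 0.157 to 0.481 CPM) and that of naive replicate 1 on 1408, a 96.4-fold difference. All 4 allografts lay between them. The log2 fold change was -0.16 (SE 1.32, 95% interval -3.23 to 2.91, adjusted p = 0.992). Leaving out naive replicate 1 gave 2.94 (SE 1.14, adjusted p = 0.263), and leaving out naive replicate 2 gave -0.68 (SE 1.34, adjusted p = 0.845).

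Alox5 (5-lipoxygenase, chr6:116410077-116461178, - strand) stood at 123, 0.813 and 17.4 CPM in naive replicates 1 to 3. It stood at 99.2, 69.9, 69.6 and 73.8 CPM in allograft replicates 1 to 4, between naive replicates 1 and 3. Naive replicate 1 exceeded naive replicate 3 by 7.07-fold. The log2 fold change was 0.73 (SE 1.14, adjusted p = 0.914) over all libraries, 3.01 (SE 1.06, adjusted p = 0.220) without naive replicate 1 and 0.13 (SE 0.682, adjusted p = 0.951) without naive replicate 2.

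Alox5ap, which presents arachidonic acid to 5-lipoxygenase (chr5:149264767-149288153, + strand), showed the same order of the naive libraries 1 and 3. Its level was 63.3, 5.58 and 19.1 CPM in naive and 28.9, 42.9, 62.8 and 41.1 CPM in allograft replicates in order of their numbers. Naive replicate 1 stood at the top of the range, beside allograft replicate 3, and exceeded naive replicate 3 by 3.31-fold. The fitted change was 0.53 on the log2 scale (SE 0.676, adjusted p = 0.879), 1.64 (SE 0.554, adjusted p = 0.202) without naive replicate 1, and 0.06 (SE 0.535, adjusted p = 0.973) without naive replicate 2.

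Without naive replicate 1, 5 of the 9 genes (Ptger2, Ltb4r1, Hpgds, Alox5 and Alox5ap) were higher in all allografts than in both remaining naive libraries, against 26.4% of all genes. The summed level of basophil markers was also highest in naive replicate 1. The 6 basophil genes summed to 195 CPM there, to 2.26 and 21.2 CPM in naive replicates 2 and 3, and to 50.6 to 67.6 CPM in the allografts. Of the defining genes, Mcpt8 stood at 114 CPM and Cd200r3 at 70.6 CPM in naive replicate 1, against 13.1 CPM and 0 in naive replicate 3. Prss34 was at 0 in all 3 naive libraries. In the allografts Mcpt8 stood at 9.45 to 30.0 CPM, Cd200r3 at 0.977 to 3.18 CPM and Prss34 at 7.00 to 13.9 CPM. Fcer1a stood at 5.60, 0 and 0 CPM in the naive libraries by number and at 9.42 to 20.3 CPM in the allografts. Ms4a2 stood at 1.70, 0.615 and 0 CPM and at most at 0.172 CPM in the allografts. Between naive replicates 1 and 3, Il3ra went the other way from Mcpt8, with 2.41 CPM and 8.19 CPM. The 8 mast cell genes summed to 328, 75.6 and 723 CPM in the naive libraries by number and to 309 to 335 CPM in the allografts; 4 of them, Cpa3 among them, were higher in naive replicate 1 than in naive replicate 3, and 4 were lower. Kit set that difference, with 21.1 CPM in naive replicate 1 and 424 CPM in naive replicate 3. The other 7 mast cell genes summed to 307 CPM and 299 CPM in these libraries. Of the 12 ILC2 markers 5 were higher and 7 lower in naive replicate 1 than in naive replicate 3. Among the 5, Arg1 was 9.49-fold and Klrg1 3.79-fold higher. Among the 7, Rora differed most and was 2.92-fold lower. The part of basophil or mast cell RNA in the levels of Hpgds, Alox5 and Alox5ap was not tested.

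All 9 detected genes were low in naive replicate 2. Its level was 1.16% to 19.1% (median 3.17%) of the mean of naive replicates 1 and 3. For the 12 ILC2 markers the share was 0% to 14.9% (median 2.55%), and for Ptprc, which encodes CD45, the protein used in the sort, it was 2.91%. The range of the 9 genes overlapped that of the ILC2 markers. Alox5 had the lowest share and Ptger2 the highest. The part of the kidney RNA in these values was not tested.

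**Figure D3:**
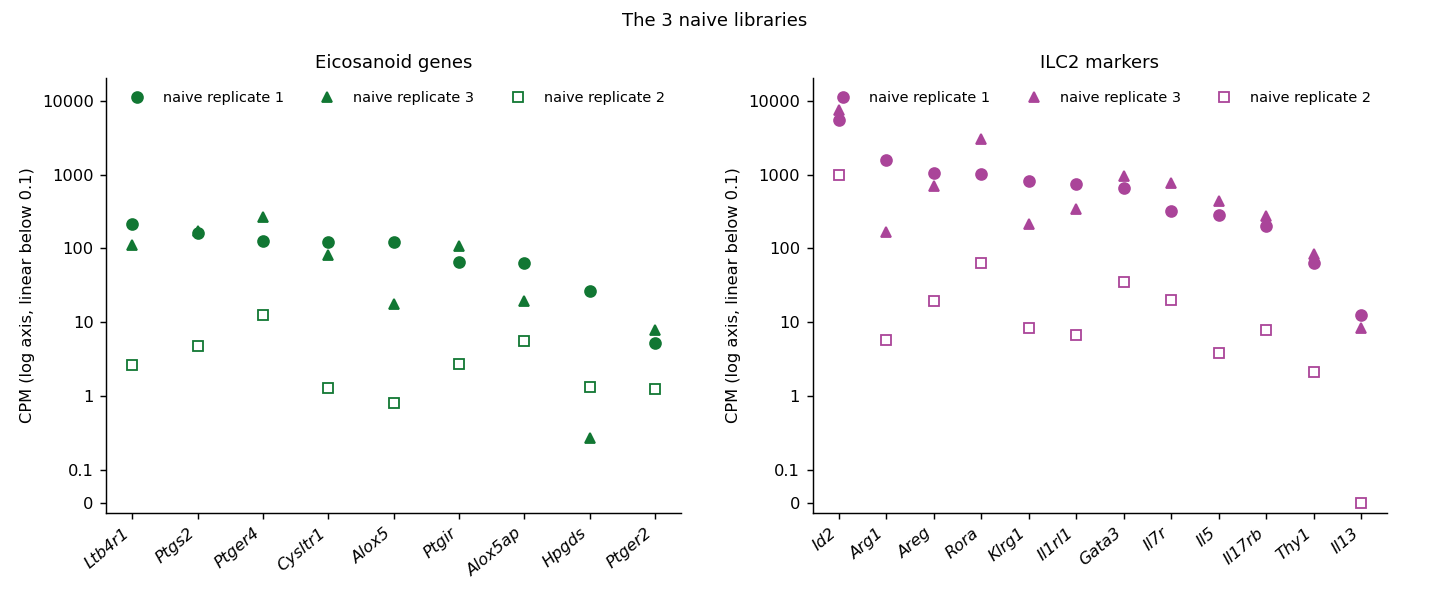
Levels in CPM (log axis, linear below 0.1) of the 9 detected genes (left) and of 12 ILC2 markers (right) in the 3 naive libraries, ordered by naive replicate 1. Naive replicate 2 (open squares) lies below naive replicates 1 and 3 for every gene shown but Hpgds, where naive replicate 3 is lowest at 0.275 CPM.

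Per length, the order of the levels in the allografts was headed by Ltb4r1 with 148 ± 12.2 FPKM (SD, n = 4), whose libraries all lay above those of the next gene. Alox5ap followed with 26.8 ± 8.66 FPKM, Ptgir with 20.997 ± 2.32 FPKM and Ptgs2 with 19.9 ± 1.35 FPKM, and the ranges of neighbours among these 3 overlapped. Ptger4 with 16.5 ± 0.418 FPKM and Alox5 with 16.5 ± 2.92 FPKM overlapped each other. Cysltr1 with 10.46 ± 0.962 FPKM, Ptger2 with 4.47 ± 1.11 FPKM and Hpgds with 1.14 ± 0.448 FPKM were each separate from their neighbours, and Ptgdr2 was listed at 0. In naive replicates 1 and 3 Ltb4r1 also came first, with 134 and 71.5 FPKM, and Ptger2 stood at 0.881 and 1.33 FPKM. Over all 3 naive libraries every pair of neighbours overlapped except Ptger2 and Ptgdr2. Within the allografts the coefficient of variation had a median of 11.5% over the 9 genes, from Ptger4 at 2.64% to Hpgds at 39.1%.

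**Figure D4:**
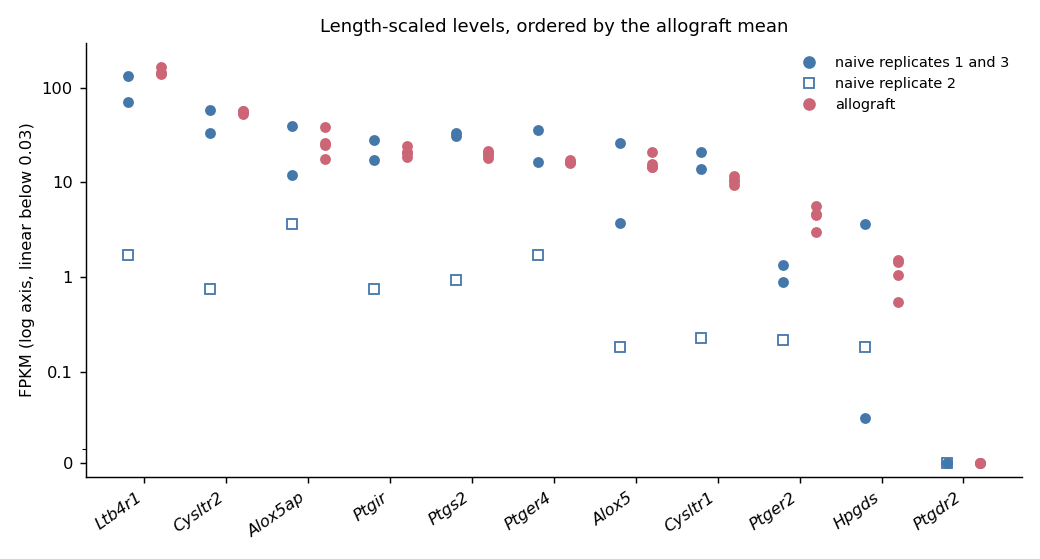
FPKM (log axis, linear below 0.03) of the 10 genes and of Cysltr2 in every library, ordered by the allograft mean. Ltb4r1 (139 to 166 FPKM in allografts) stands highest and Ptgdr2 lies at 0, and naive replicate 2 (open squares) is low for each detected gene.

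The genes whose level followed that of Ltb4r1, the most abundant gene, most closely over the 7 libraries were Stk17b, Tnfrsf1b and Rhof (Pearson's r of log2 CPM 0.999 each, across 7 libraries). Of 4938 genes compared, 604 had an r above 0.95, and all points share the low naive replicate 2. Over the 6 libraries without it the nearest were Unc119b (r = 0.998), Dnttip2 (r = 0.998) and Eif3k (r = 0.997), with 382 genes above 0.95. The 3 nearest genes were different ones in the 2 sets of libraries.

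Of the 36 pairs of the 9 genes, 6 (16.7%) had a ratio within the library that did not overlap between the groups, against 12.9% of all pairs of genes tested. Relative to the second gene of the pair, the first was higher in allografts for Ptgir and Ptger4, Ptgir and Ptgs2, Ptger2 and Ptger4, Ltb4r1 and Cysltr1, Alox5 and Cysltr1, and Ltb4r1 and Ptgs2. The mean log2 ratios differed by 0.56 (Ptgir to Ptgs2) to 2.03 (Ptger2 to Ptger4). Without naive replicate 2 there were 10 pairs (27.8%), 5 of them with Ptger2, against 31.6% of all pairs. Both shares lay near those of all genes.

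**Figure D5:**
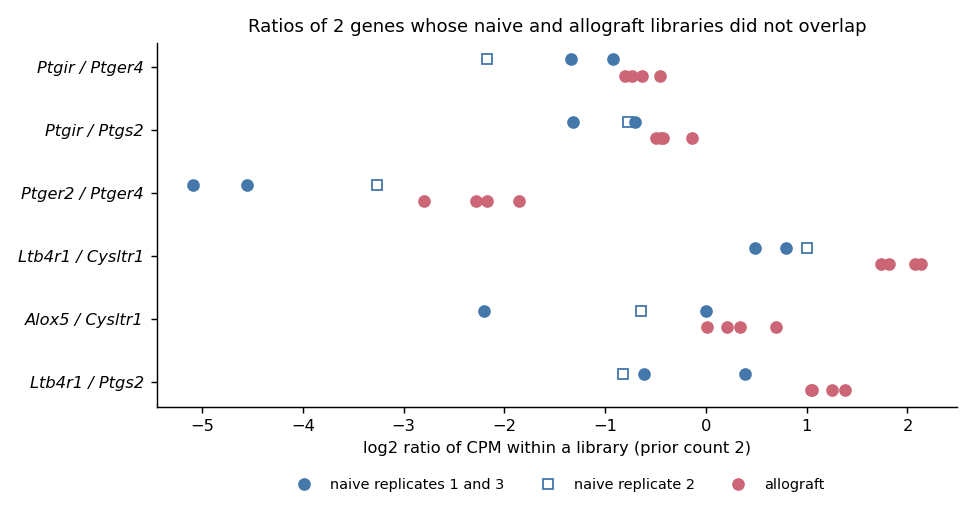
Log2 ratio of the CPM of 2 genes within a library (prior count 2) for the 6 pairs whose naive and allograft libraries did not overlap, 1 point per library. The ratio of Ptger2 to Ptger4 runs from -5.09 to -3.26 in naive and from -2.79 to -1.86 in allograft libraries.

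Around these 10 genes, 74 further genes of the pathways in 8 lists were examined, of which 64 were tested. In edgeR over all 7 libraries 0 of the 64 passed the threshold, with 30 positive and 34 negative log2 fold changes. DESeq2 called 3 of the 59 to which it gave an adjusted p (Alox15, Dpep2 and Mgst3), or 5.08% against 6.98% of all genes. Alox15 was at 0 FPKM in all 3 naive libraries. Dpep2 had at most 2 counts in naive replicates 1 and 3 and stood at 0.0659 CPM in naive replicate 2. Both could only be called higher, so nothing is read from this share. Mgst3 had a negative log2 fold change in edgeR (-3.25). Of the other prostanoid synthesis genes 0 of 6 tested passed, with a median log2 fold change of -2.19. Without naive replicate 2 the median was 0.60, with 4 of 6 positive, against 0.23 over all genes. Of these 4, Tbxas1 had 0 counts and Ptges at most 3 in naive replicates 1 and 3. Both passed the filter through the allografts and could only be positive, so nothing is read from this median or count. The most abundant of these synthesis genes were Ptges3, a prostaglandin E synthase and cochaperone (51.3, 17.7 and 25.6 FPKM in naive, 34.4 to 43.4 FPKM in allografts), Ptges2 (2.78, 18.9 and 0 FPKM, and 2.49 to 3.96 FPKM) and Mgst1, a microsomal glutathione transferase. Mgst1 stood at 107 FPKM in naive replicate 2, at 0 and 10.04 FPKM in naive replicates 1 and 3 and at 1.02 to 3.85 FPKM in the allografts. Ptgs1, which encodes COX-1, stood at 0, 7.44 and 4.21 FPKM in naive and 0.454 to 1.04 FPKM in allograft libraries.

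Of the other prostanoid receptors 0 of 4 tested passed. Ptger3, the EP3 receptor, stood at 19.9 FPKM in naive replicate 2 and at most at 1.15 FPKM elsewhere. Ptgfr, the prostaglandin F receptor, stood at 4.23 and 3.86 FPKM in naive replicates 2 and 3 and at most at 0.165 FPKM elsewhere. Pparg, a nuclear receptor that binds prostaglandin D2 products, was abundant, with 43.1, 2.76 and 16.7 FPKM in naive and 25.6 to 43.6 FPKM in allograft libraries (log2 fold change 0.64, SE 0.700, adjusted p = 0.851). Of the genes of prostanoid inactivation and transport, 0 of 5 tested passed, and the most abundant were Cbr1, Ptgr1 and Ptgr2. Cbr1 stood at 4.04, 33.5 and 3.83 FPKM in the naive libraries by number and at 2.54 to 13.9 FPKM in the allografts, and its log2 fold change turned from -1.28 to 0.91 without naive replicate 2. Ptgr1 was highest in naive replicate 1 (16.2 FPKM, 1.53 to 5.62 FPKM in the allografts), and Ptgr2 in naive replicate 2 (5.04 FPKM, 2.09 to 4.93 FPKM in the allografts).

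On the leukotriene side, 0 of 6 tested genes of synthesis and export passed. Lta4h, which makes leukotriene B4, stood at 26.7, 7.17 and 9.61 FPKM in naive and 13.1 to 20.01 FPKM in allograft libraries. Cotl1, an actin-binding protein that also binds 5-lipoxygenase, stood at 272, 8.11 and 192 FPKM and at 142 to 200 FPKM. Mgst3 was highest in naive replicate 2, with 194 FPKM against 7.38 and 56.6 FPKM in naive replicates 1 and 3 and 9.79 to 14.3 FPKM in the allografts. Ltc4s, the leukotriene C4 synthase, stood at 12.6 FPKM in naive replicate 2, at 0 in naive replicates 1 and 3 and at 0.386 to 2.93 FPKM in the allografts. Genes high in naive replicate 2 lay in the library with the kidney transcripts, whose part was not tested.

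Of the leukotriene breakdown genes 0 of 5 tested passed, and of the other lipid mediator receptors 0 of 5. Beside Cysltr2 (log2 fold change 0.85, adjusted p = 0.861), the oxoglutarate receptor Oxgr1 stood at 33.7 FPKM in naive replicate 2 and at most at 0.0705 FPKM elsewhere. Ggt1 stood at 5.26, 35.3 and 0 FPKM in the naive libraries by number and at 4.34 to 12.2 FPKM in the allografts, and its log2 fold change turned from -1.27 to 1.53 without naive replicate 2. Ggt5 stood at 1.69, 0.556 and 4.94 FPKM and at 0.519 to 1.22 FPKM. With naive replicate 2 left out, 4 of 65 tested pathway genes passed in edgeR, all as higher in allografts (background 3.0%). They were among 9 of the 65 with 0 counts in naive replicates 1 and 3, which passed the filter through the allografts and could only be called higher, so nothing is read from the count. These 4 were Ptafr, the receptor for platelet-activating factor (adjusted p = 0.0234), Cyp4f18, which breaks down leukotriene B4 (0.0344), the thromboxane synthase Tbxas1 (0.0413) and the dipeptidase Dpep1 (0.0446). In that order, their mean allograft levels were 16.7, 10.1, 5.13 and 2.27 CPM. These were 266-fold, 161-fold, 81.9-fold and 36.2-fold the mean level of 3 counts in naive replicates 1 and 3, a floor for counting error only. In naive replicate 2 these 4 genes stood at 1.21, 2.35, 13.5 and 14.3 CPM, so that Tbxas1 and Dpep1 were higher there than on average in the allografts. The marker lists of dendritic cells, neutrophils and eosinophils separated the groups the same way; the part of such cells was not tested.

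Downstream of the receptors, 0 of 16 cAMP signalling genes and 0 of 17 genes of calcium and NFAT signalling passed. The cAMP list had a median log2 fold change of -0.06, with 9 of 16 negative; without naive replicate 2 the median was -0.45, with 12 of 16 negative, against 0.23 over all genes. Gnas, the stimulatory G protein subunit, stood at 50.8, 32.7 and 39.9 FPKM in naive and 45.8 to 53.7 FPKM in allograft libraries. Prkar1a, a regulatory subunit of protein kinase A, stood at 195, 97.5 and 208 FPKM in naive libraries and at 232 to 253 FPKM in the allografts. Crem, a cAMP-responsive transcription factor, stood at 33.4, 4.78 and 41.8 FPKM in naive and 21.1 to 27.4 FPKM in allograft libraries. The calcium list had a median of 0.30, and of 0.10 without naive replicate 2, with Gnai2, Gnai3 (65.5, 17.9 and 16.0 FPKM in naive, 33.9 to 51.5 FPKM in allograft libraries) and Itpr2 (12.7, 10.97 and 36.7 FPKM, and 21.5 to 31.2 FPKM) the most abundant. Gnai2 and Gnai3 are inhibitory G protein subunits and Itpr2 is a calcium release channel. The allograft libraries of Gnai2 (94.4 to 124 FPKM) lay above all naive libraries (16.4 to 83.3 FPKM), with a log2 fold change of 1.02 and an adjusted p of 0.513 in edgeR. Those of Prkar1a, Itpr3 and Nfatc2 also lay above all naive libraries in FPKM. Over all genes tested, 12.5% lay higher in CPM with no overlap.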

How the data were processed

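RNA-seq of 7 libraries (3 naive, 4 allograft) was analysed; the titles gave the groups and replicate numbers. The authors deposited 1 table of counts per gene, as whole numbers, and 1 table of FPKM for the same 55335 identifiers, and 0 columns matched no sample. Per the labels' protocols, full-length cDNA was amplified before library construction. The submitters' processing notes name FastQC 0.11.5, STAR 2.5.3a, StringTie 1.3.1c, DESeq2 1.16.1 and mm10; the annotation, the counting tool and any use of strand are not given in the sources used here. The deposited FPKM divided by CPM implied gene lengths of 1.15 to 1.16 times the exonic bases of GENCODE M21 for the 9 detected genes, so that both tables carried the same measurement.

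Counts were tested with edgeR 4.0.16 (R 4.3.3; quasi-likelihood, TMM, filterByExpr, Benjamini-Hochberg over 17015 genes, threshold 0.05), without covariates. Log2 fold changes are allograft over naive. Alternatives were DESeq2 1.42.0, its size factors in edgeR, no filter or a mean of at least 50 counts, limma 3.58.1 on log2(FPKM + 0.1) or log2(FPKM + 1), a replicate block and each library left out. Marker sums were compared by exact permutation over 35 splits. Wilson intervals and floors cover counting error only, since amplified reads are not independent molecules. Coordinates come from GENCODE M21 (GRCm38) and promoter windows from RefSeq (GRCm38.p6); 8 of 10 genes had a window. The genes and lists were chosen with earlier results of these data known. All 10 genes are named. Of each pathway list the genes past the threshold are named, and otherwise the 3 with the highest mean FPKM. Others named (Ptgs1, Ptges, Ltc4s, Ptgdr, Alox15, Dpep2, Itpr3 and Nfatc2) were chosen after their values were seen. Genes whose pattern was nearest to that of Ltb4r1 were sought among genes with a symbol and an average log2 CPM of at least 5.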

Additional observations from a re-analysis of the deposited data

Results flagged for a closer look

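Alox5 stood apart in 1 allograft library: it was at 99.2 CPM in allograft replicate 1, against 69.6 to 73.8 CPM in allograft replicates 2 to 4. The gap to the next library took up more of the group's range than Dixon's limit for 4 samples allows. Each detected gene of the 10 was examined in this way among the allografts, 9 groups in all, of which chance alone flags about 1 in 20, or 0.45 here. Without allograft replicate 1 the Alox5 difference again did not pass the threshold in edgeR.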

How the results depend on the processing

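Of the 10 genes, 0 passed the threshold in edgeR, and in every other edgeR or limma setting tried the count was also 0; it was 1 in DESeq2 and 3 in DESeq2 without naive replicate 2, a setting chosen after seeing the data. Ptger2, Ltb4r1, Alox5 and Alox5ap had a positive log2 fold change in all 15 alternatives. For the others the sign turned in some: Ptgir was -0.24 in DESeq2 without naive replicate 2. In limma on log2(FPKM + 0.1) and log2(FPKM + 1), values were 0.70 and 0.55 for Ptger4, 1.20 and 0.63 for Cysltr1, 1.17 and 0.24 for Hpgds and 0.95 and 0.69 for Ptgs2, with medians over all genes of 0.52 and 0.21. With the replicate block, values were 0.47, 0.75, 1.78 and 0.51 in the same order, with a median over all genes of 0.55. DESeq2's size factors in edgeR moved that median to -0.20 with no change of sign among the 9 genes. With each library left out in turn, values ran from -0.14 (naive replicate 2) to 1.23 (naive replicate 3) for Ptgir, from -0.69 (naive replicate 2) to 0.85 (naive replicate 3) for Ptger4, from -0.75 (naive replicate 2) to 0.53 (naive replicate 1) for Cysltr1, from -0.73 (naive replicate 3) to 2.94 (naive replicate 1) for Hpgds and from -0.73 (naive replicate 2) to 0.31 (naive replicate 3) for Ptgs2. The cause was not tested.

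Over all genes 6 passed in edgeR, 1244 in DESeq2, 3263 in DESeq2 without naive replicate 2, 201 and 76 in limma with the smaller and the larger pseudocount, 0 with the replicate block (252 at an unadjusted p under 0.05) and 0 to 560 with 1 library left out: leaving out naive replicate 1 gave 107, leaving out naive replicate 2 gave 560, and leaving out any allograft library gave 0 (848 to 1074 unadjusted). Of the further pathway genes 0 passed in edgeR, 3 in DESeq2 and 10 in DESeq2 without naive replicate 2, which called 16.9% of all genes. Limma with either pseudocount gave 1 (Ptafr), and leaving out 1 library in edgeR gave 0 to 4. Of the 10, all but Ggt5 had at most 3 counts in naive replicates 1 and 3, and Ptafr had 0 there. Such genes could only be called higher, so nothing is read from these counts. The genes whose groups did not overlap numbered 2, and 2 to 5 with 1 library left out; the marker lists that separated the groups numbered 5, and 5 to 10. The deviations of same-numbered naive and allograft libraries had r of -0.00737 to 0.0364, and those of differently numbered ones -0.101 to 0.0943. These values cannot show whether the numbers pair the samples, which the labels do not say. Depth left low values uncertain, such as the 12 counts of Hpgds in naive replicate 3.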
